A study of Saccharomyces cerevisiae with 24 samples.

Results

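The ATG genes of budding yeast encode the proteins of autophagy, and 37 genes whose standard symbol is ATG followed by a number were found among the 7126 features of the expression table. Members were taken by symbol from the reference annotation, whatever their values, and all 37 were tested. In every strain most of them rose in salt: 25 of 37 rose and 1 fell in the wild type by 20 min, beside 24.5% and 22.5% of all tested features, led by ATG8, the ubiquitin-like protein of the forming autophagosome. ATG41, whose protein binds Atg9, fell in every strain by 20 min, and ATG32, the receptor gene of mitochondria, was lower in 2 of the mutants than in the wild type at 10 min.

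Autophagy carries cytoplasm and organelles to the vacuole, the degradative compartment of the yeast cell. A kinase complex around Atg1 starts it when the TORC1 kinase is less active, vesicles with Atg9 and the lipid transfer protein Atg2 build a membrane sheet, and a phosphatidylinositol 3-kinase marks that membrane. Atg8 and Atg12 are attached to their targets by enzymes that work like those of ubiquitin, and Atg8 then sits on the growing membrane. Receptors such as Atg19, Atg32 or Atg39 tie a chosen cargo to Atg8, and Atg11 is the scaffold of these selective routes. Many ATG genes are known to be transcribed more when yeast cells are starved of nitrogen.

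RNA of 4 strains was sequenced before salt (0 min) and after 10 and 20 min of 0.4 M NaCl, in 2 libraries for each of 12 groups, 24 in all. Cells in mid-log phase in synthetic complete medium were used. All strains descend from W303-1a in which HIS3 replaced SHO1, a membrane protein of the osmosensing pathway, and a qVenus reporter under the STL1 promoter was put at leu2. YPD1 was replaced by a cassette with TRP1 and HPH, and SLN1 by one with URA3 and KanMX, per the labels' protocols. Sln1 is the osmosensing histidine kinase, and Ypd1 passes its phosphate to the response regulators above the Hog1 kinase. The wild type is labelled WT, with no substitution given. In Mut1 the substitution in Ypd1 is M20D, and those in Sln1 are E1101K, E1110K and S1179D. Mut2 adds M92K in Ypd1 to the substitutions of Mut1. In Mut3 the substitution in Ypd1 is I13D, and Sln1 has L1109K beside those of Mut1. The labels do not say whether each strain is 1 clone or whether the libraries of a group came from separate cultures, so p-values measure the spread between these libraries, which may be technical.

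Levels are FPKM, fragments scaled to gene length and to the size of the library, as the authors deposited them. In such bulk RNA, a change within cells and a change in how many cells express a gene cannot be told apart. The values of a library summed to 1850836 to 2995688 FPKM, and the read depth behind them is unknown. SHO1 was listed at 0 in all 24 libraries, and the gene of the a-cell pheromone receptor, STE2, was listed at 55.6 to 695 FPKM. The libraries of a group end in 0 or 1 in the table and are called library 0 and library 1. Libraries with the same number deviated together from their group means, so a fit that takes this number as a block is given beside the members whose calls in salt it changes, and as counts or examples for the other comparisons. Library 0 of Mut2 at 20 min stood apart. It had 2863 FPKM over genes of RNAs that are not translated, against 196 to 535 in the others. Calls described below that were lost without it are marked. The calls of ATG17 in Mut2 at 20 against 0 min and of ATG19 in Mut2 at 20 against 10 min were lost without it too. Their log2 changes were then 0.38 and 0.63.

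The stretches upstream of all 37 members were read, because stress factors of yeast bind short known motifs. AGGGG is the element of Msn2 and Msn4, the general stress factors, and is also bound by Rph1, a repressor of ATG genes. GCCGCC is the element of Ume6, a repressor known to act on ATG8, and TGACTC that of Gcn4, the activator of amino acid starvation. On either strand of the 250 bases before the coding start, AGGGG was found for 8 of 37 members (21.6%), against 1126 of 6001 genes of the reference (18.8%). GCCGCC was found for 3 members (8.11%, against 4.17% of all) and TGACTC for 5 (13.5%, against 6.25%). Of the 20 members that rose in the wild type at 10 min, 7 held AGGGG, 3 GCCGCC and 5 TGACTC, and of the other 17 members 1, 0 and 0. A match is only these letters in that window, and binding was not measured. Shown here, read 5′ to 3′ on the strand of the gene from the R64 reference (RefSeq), are 30 bases around a match to AGGGG for each of the 8 members, with a second match for ATG8 and a match of that gene to GCCGCC. Capitals mark 1 match in each window, which reads CCCCT or GGCGGC where it lies on the other strand. The ATG42 window and the GCCGCC window of ATG8 each hold a further copy that is not in capitals.
ATG8 (chrII:80805-80834, minus strand): ggaaatacaaaaAGGGGaaccattaaaggt
ATG8 (chrII:80782-80811, minus strand): taaaggttgaggAGGGGattgataagagaa
ATG8 (chrII:80847-80876, minus strand): ccggttattttcGGCGGCggcaaaaatatt
ATG19 (chrXV:168545-168574, plus strand): atgacccggaaaAGGGGcgtgtgacattgc
ATG34 (chrXV:165515-165544, plus strand): atggcacacgcaCCCCTaaagtaggtgggg
ATG9 (chrIV:184791-184820, plus strand): tttcggaactttAGGGGagccacactttaa
ATG29 (chrXVI:237252-237281, plus strand): aggtgaaaataaAGGGGtgttagtgaatac
ATG20 (chrIV:258679-258708, minus strand): cacccattgtgcCCCCTttaagatatggct
ATG42 (chrII:515566-515595, plus strand): tcgaaaaatgtcAGGGGacaggggttatat
ATG10 (chrXII:52809-52838, minus strand): tttggcttctctCCCCTatttattcaattt
ATG8 held 2 copies of AGGGG, 2 overlapping copies of GCCGCC and 1 of TGACTC. ATG42 held all of the motifs too, with 2 copies of AGGGG. ATG10, whose window held AGGGG, passed the test at neither time against 0 min in any strain.

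Salt was the first comparison, each strain against its own 0 min libraries. A member was called when its adjusted p was under 0.05, with p-values adjusted over all 6359 tested features. At 10 min in the wild type, 20 members rose and 1 fell, while 17.6% of all tested features rose and 17.6% fell. At 20 min, 25 rose and 1 fell, beside 24.5% and 22.5% of all features. The members' median log2 change was 0.74 at 10 min and 1.32 at 20 min, beside 0.02 and 0.07 over all tested features. In Mut1, 23 members rose and 0 fell at 10 min (15.8% and 15.5% of all features), and 24 rose and 1 fell at 20 min (20.2% and 19.5%), with median log2 changes of 1.04 and 1.22. In Mut2, 23 members rose and 1 fell at 10 min (16.3% and 15.4% of all features), and 24 rose and 1 fell at 20 min (21.5% and 18.2%), with median log2 changes of 1.04 and 1.42. In Mut3, 23 members rose and 1 fell at 10 min (17.5% and 16.7% of all features), and 28 rose and 1 fell at 20 min (25.3% and 22.4%), with median log2 changes of 0.89 and 1.42. Of the 37 members, 19 rose in every strain at 10 min (51.4%, beside 10.8% of all features), and 23 at 20 min (62.2%, beside 15.7%). Some of these calls were lost when 1 library was left out, in fits without the block. A group then keeps 1 library number, so a regular difference between the numbers enters the change. That difference was 0.56 on the log2 scale for ATG15 and 0.63 for ATG33, with library 1 higher in 12 of 12 groups. Such a loss therefore does not show by itself that a rise rests on a single library. With 1 library left out, ATG5, ATG15, ATG26 and ATG42 at 10 min each lost the call in at least 1 strain. At 20 min this held for ATG15, ATG17, ATG31 and ATG33. ATG41 fell in every strain at 20 min. ATG10, ATG11, ATG12, ATG13, ATG27, ATG44 and ATG45 were called at neither time in any strain. With the block ATG11, ATG12, ATG13 and ATG45 were called in at least 1 strain, and ATG10, ATG27 and ATG44 in none.

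**Figure D1:**
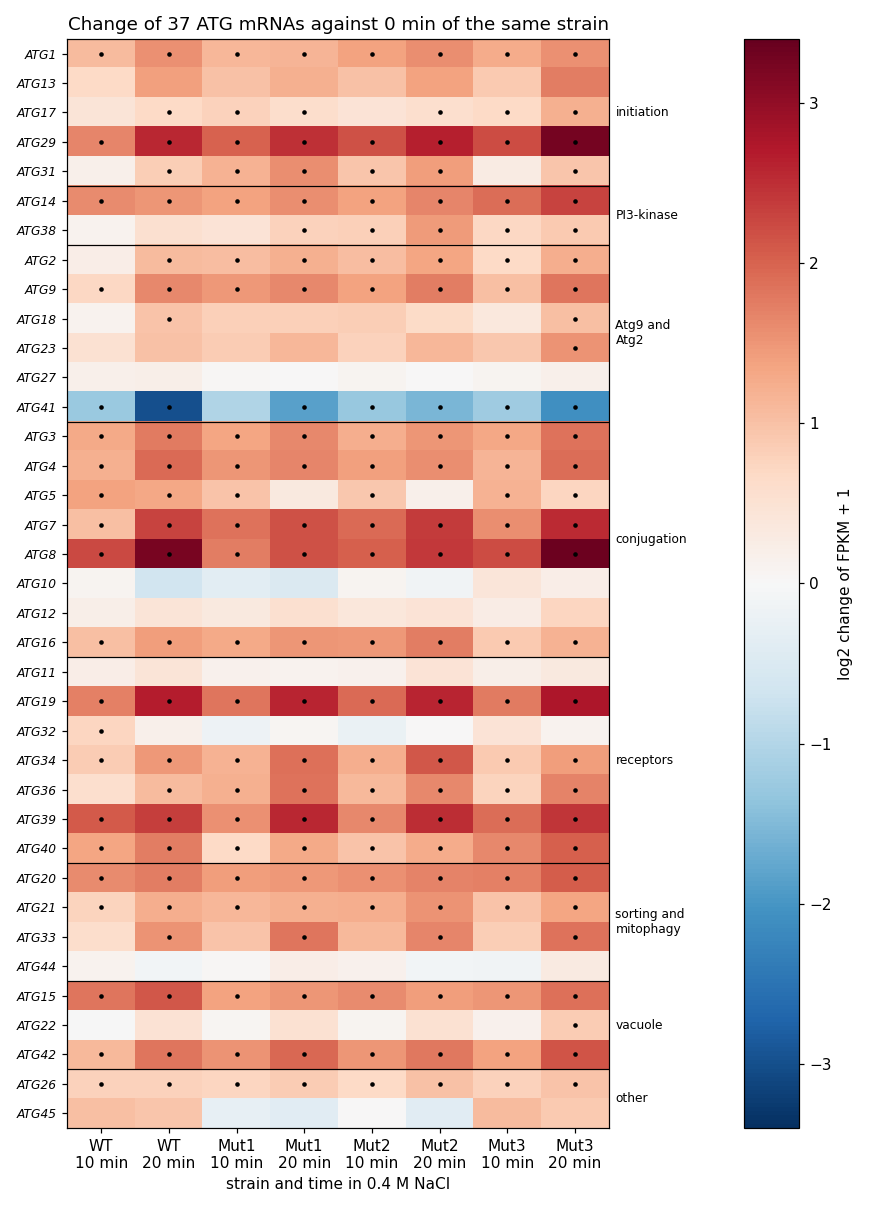
Log2 change in FPKM plus 1 of the 37 ATG genes (rows, grouped by step) against 0 min of the same strain at 10 and 20 min (columns, by strain), with the colour giving the size and direction of the change and a dot on the changes called at an adjusted p under 0.05. ATG8, ATG19, ATG29 and ATG39 are among the strongest increases in all 4 strains at both times, and ATG7 is among them at 20 min. ATG41 is the member with the largest decrease, at -2.99 in the wild type at 20 min.

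The conjugation step held ATG8, the member with the largest rise at 20 min in the wild type and Mut3. Of its 8 members, 6 rose in the wild type at 10 min and 6 at 20 min, and these were ATG3, ATG4, ATG5, ATG7, ATG8 and ATG16 at both times. ATG8 (YBL078C, chromosome II, 80378 to 80731 on R64, a single coding sequence) was listed at 30.3 and 25.7 FPKM at 0 min, 145 and 127 at 10 min, and 299.7 and 244 at 20 min in the wild type. The 3 times did not overlap, and ATG8 had the largest log2 change of all members at both times with 1 FPKM added. With 0.1 added, ATG39 came first at 10 min, at 2.42 against 2.28. The change of ATG8 was 4.73-fold at 10 min, a log2 change of 2.24 ± 0.17 (SE, adjusted p = 1.18e-07), and 9.4-fold at 20 min, a log2 change of 3.23 ± 0.17 (SE, adjusted p = 1.45e-09). Folds here and below are ratios of FPKM plus 1, which understates the change of genes with few FPKM. In Mut1 its values were 86.5 and 77.7 FPKM at 0 min, 313 and 246 at 10 min, and 353 and 395 at 20 min. In Mut2 they were 65.1 and 62.3 FPKM at 0 min, 278 and 250.5 at 10 min, and 349 and 329 at 20 min. Mut3 was listed at 52.1 and 39.4 FPKM at 0 min, 224 and 208 at 10 min, and 503 and 425 at 20 min. Every salt library was above every 0 min library of its strain, and the mutants began from higher levels than the wild type. By 20 min the rise of Mut1 was 4.51-fold, that of Mut2 5.26-fold and that of Mut3 10.0-fold. In Mut1 and Mut2 the rises of ATG19, ATG29 and ATG39 were larger at that time.

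The enzymes that handle Atg8 rose with it. ATG7, the E1-like enzyme that activates both Atg8 and Atg12, was listed at 4.11 and 5.14 FPKM at 0 min, 9.98 and 10.9 at 10 min, and 23.9 and 29 at 20 min in the wild type. Its libraries were ordered by time without overlap. It had a log2 change of 1.03 ± 0.19 (SE, adjusted p = 0.000731) at 10 min and a log2 change of 2.28 ± 0.19 (SE, adjusted p = 2.25e-07) at 20 min. Over the 4 strains the rise at 20 min was 4.5- to 5.83-fold. Mut1 was listed at 5.06 and 5.89 FPKM at 0 min, 21 and 23.8 at 10 min, and 25.8 and 30.5 at 20 min. In Mut3 the values were 4.35 and 5.73 FPKM at 0 min, 15 and 19.2 at 10 min, and 32.5 and 35.5 at 20 min. ATG3, the E2-like enzyme of Atg8, was listed at 15.5 and 18.1 FPKM at 0 min, 38.6 and 46.3 at 10 min, and 55 and 63.8 at 20 min in the wild type. It rose 2.36- to 2.52-fold at 10 min and 2.84- to 3.61-fold at 20 min over the strains. ATG4, the protease that trims Atg8 and later frees it from the membrane, went from 5.0 and 7.85 FPKM to 25.7 and 27.3 at 20 min in the wild type, a log2 change of 1.92 ± 0.21 (SE, adjusted p = 2.53e-06). All of these were called at both times in every strain. ATG16, which holds the Atg12 and Atg5 conjugate together, rose 2.29- to 3.36-fold at 20 min over the strains.

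ATG5, the protein to which Atg12 is joined, rose at 10 min in every strain, and at 20 min in the wild type and Mut3. In the wild type it was listed at 42 and 63.3 FPKM at 0 min, 118 and 154 at 10 min, and 119.8 and 142 at 20 min, so that both salt times lay above 0 min and overlapped each other. In Mut1 the values were 61.8 and 85.3 FPKM at 0 min, 138 and 150.1 at 10 min, and 88.8 and 95.6 at 20 min. Mut2 was listed at 60.4 and 78 FPKM at 0 min, 122 and 140.2 at 10 min, and 79.3 and 75.8 at 20 min. At 20 min the wild type was 2.5-fold above its start (adjusted p = 0.000361) and Mut3 1.65-fold (adjusted p = 0.0227). The Mut3 call was lost without Mut3 at 0 min, library 0 (0.219) or Mut3 at 20 min, library 1 (0.147), where a bracket after a library gives the adjusted p without it. Mut1 and Mut2 were not called at that time, with log2 changes of 0.34 ± 0.24 and 0.17 ± 0.24 (SE) and adjusted p of 0.297 and 0.624. With the block Mut1 was called (adjusted p = 0.0309) and Mut2 was not (adjusted p = 0.249). At 10 min the call of Mut1 was lost without Mut1 at 0 min, library 0 (0.0796), and that of Mut2 without Mut2 at 0 min, library 0 (0.092) or Mut2 at 10 min, library 1 (0.0709). The other members of the step were ATG12, the ubiquitin-like protein joined to Atg5, and ATG10, its E2-like enzyme, and neither was called. With the block ATG12 was called higher at 20 min in Mut1 and Mut3 (adjusted p = 0.0476 and 0.0103). ATG12 was listed at 15.3 and 23.8 FPKM at 0 min, 17.5 and 27.5 at 10 min, and 25.5 and 26.5 at 20 min in the wild type, and ATG10 at 5.95 and 14 FPKM at 0 min, 8.47 and 11.5 at 10 min, and 4.8 and 6.31 at 20 min.

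Initiation rose in part. Of its 5 members, 2 rose in the wild type at 10 min, ATG1 and ATG29, and 4 at 20 min, which added ATG17 and ATG31. ATG1, the kinase, was listed at 3.76 and 3.55 FPKM at 0 min, 7.69 and 10.1 at 10 min, and 12.1 and 13.1 at 20 min. It rose 2.11-fold at 10 min, a log2 change of 1.07 ± 0.15 (SE, adjusted p = 6.46e-05), and 2.91-fold at 20 min (adjusted p = 1.06e-06), and over the strains 2.11- to 2.57-fold and 2.22- to 2.98-fold. ATG29, which with Atg17 and Atg31 forms the scaffold under the kinase, was listed at 9.2 and 7.26 FPKM at 0 min, 27.6 and 27.9 at 10 min, and 52.3 and 54.5 at 20 min. Its log2 changes were 1.65 ± 0.25 and 2.57 ± 0.25 (SE, adjusted p = 0.000114 and 8.62e-07), and the largest was 3.26 ± 0.25 in Mut3 at 20 min. ATG29 overlaps SET6 on the other strand, and whether reads were counted by strand is not given in the sources used here, so its values are uncertain.

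The other members of the complex were not called at 10 min in the wild type. ATG17 was listed at 5.19 and 4.42 FPKM at 0 min, 6.97 and 6.67 at 10 min, and 8.0 and 8.66 at 20 min in the wild type. Its change at 20 min, a log2 change of 0.69 ± 0.21 (SE, adjusted p = 0.0159), was not called without WT at 0 min, library 1 (0.0907) or WT at 20 min, library 1 (0.0867). ATG31 was listed at 11.1 and 11.5 FPKM at 0 min, 11.2 and 14.6 at 10 min, and 19.8 and 22.3 at 20 min. Its change at 20 min, a log2 change of 0.84 ± 0.28 (SE, adjusted p = 0.0228), was lost without WT at 0 min, library 0 (0.0917), WT at 0 min, library 1 (0.0648), WT at 20 min, library 0 (0.0516) or WT at 20 min, library 1 (0.116). With the block ATG17 was called at 10 min in Mut2 as well (adjusted p = 0.0482). Its calls in Mut1 at 10 and 20 min, in Mut2 at 20 min and in Mut3 at 10 min were lost when certain single libraries were left out. In Mut1, ATG31 went from 12.1 and 13.8 FPKM to 27.2 and 34.8 at 10 min and 35.6 and 45.9 at 20 min, 2.28-fold and 2.97-fold above its start (adjusted p = 0.00401 and 0.000352). ATG13, the regulatory partner of Atg1 and a target of TORC1, was the member that separated most by library number. Library 0 of the wild type listed it at 4.04, 7.96 and 15.3 FPKM at the 3 times and library 1 at 14.6, 21.7 and 31.9. Both library series went up with time, but the groups overlapped and the log2 changes of 0.69 ± 0.96 and 1.39 ± 0.96 (SE) were not called (adjusted p = 0.642 and 0.259). With the block the adjusted p over both times and all strains was 1.28e-07 to 0.00144.

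**Figure D2:**
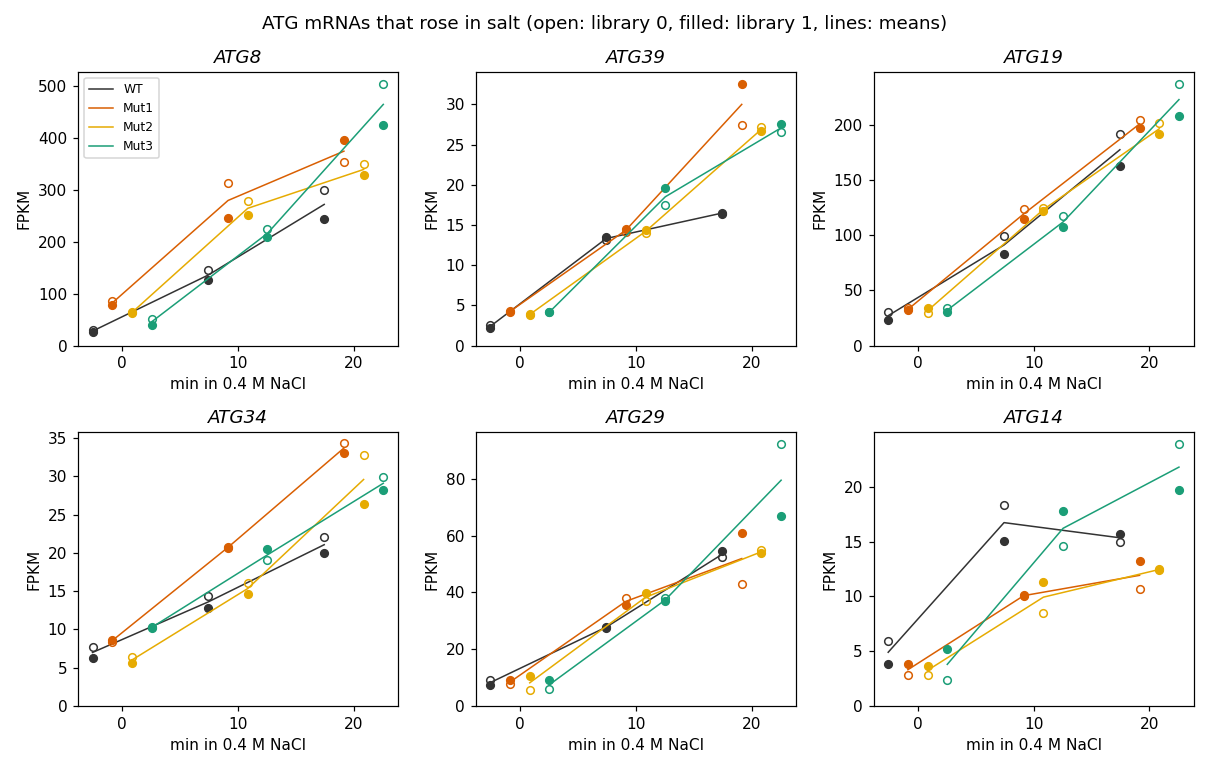
FPKM (linear axis from 0) of ATG8, ATG39, ATG19, ATG34, ATG29 and ATG14 at 0, 10 and 20 min in 0.4 M NaCl, 1 panel a gene, with an open point for library 0 and a filled one for library 1, coloured and set sideways by strain, and lines through the group means. In all 6 genes both salt times lie above 0 min in every strain, and the ATG8 panel shows the mutants starting above the wild type.

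Cargo receptors did not all move alike. Of the 7 members of the step, 5 rose in the wild type at 10 min and 5 at 20 min. ATG45, described as the receptor of glycogen, was counted outside this step. ATG19, the receptor of the route that brings aminopeptidase to the vacuole, was listed at 30.8 and 23.6 FPKM at 0 min, 99.8 and 82.7 at 10 min, and 192 and 163 at 20 min. It rose 3.29-fold and 6.37-fold (adjusted p = 3.19e-07 and 1.84e-09), without overlap between times, and over the strains 3.29- to 3.81-fold and 5.97- to 6.74-fold. In Mut1 the values were 33.8 and 31.9 FPKM at 0 min, 124 and 115 at 10 min, and 205 and 197 at 20 min, with every salt library above both libraries at 0 min. ATG34, its paralogue for alpha-mannosidase, was listed at 7.66 and 6.31 FPKM at 0 min, 14.4 and 12.8 at 10 min, and 22.1 and 20.0 at 20 min. It rose 1.83- to 2.34-fold at 10 min and 2.67- to 4.36-fold at 20 min over the strains. Mut2 had the largest rise of ATG34, with 6.39 and 5.6 FPKM at 0 min, 16.1 and 14.6 at 10 min, and 32.8 and 26.4 at 20 min. The 2 genes lie near each other on chromosome XV, ATG34 at 165714 to 166952 and ATG19 at 168727 to 169974 (R64).

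ATG39, the receptor for the nuclear envelope and the endoplasmic reticulum around it, came after ATG8 in the wild type at 10 min with 1 FPKM added, and before it with 0.1 added. It was listed at 2.57 and 2.25 FPKM at 0 min, 13.2 and 13.5 at 10 min, and 16.6 and 16.4 at 20 min. The libraries of a time lay close together and the times did not overlap, with a log2 change of 2.07 ± 0.10 (SE, adjusted p = 1.42e-09) at 10 min and a log2 change of 2.36 ± 0.10 (SE, adjusted p = 2.21e-10) at 20 min. In Mut1 it was listed at 4.37 and 4.17 FPKM at 0 min, 14.2 and 14.6 at 10 min, and 27.5 and 32.5 at 20 min. In Mut2 the values were 3.95 and 3.8 FPKM at 0 min, 14 and 14.4 at 10 min, and 27.2 and 26.6 at 20 min. Mut3 was listed at 4.2 and 4.16 FPKM at 0 min, 17.4 and 19.6 at 10 min, and 26.6 and 27.6 at 20 min. At 20 min all 6 mutant libraries were above both wild-type libraries, and so were they at 0 min. ATG40, the receptor for the rest of that organelle, was listed at 9.31 and 9.55 FPKM at 0 min, 25.6 and 25.1 at 10 min, and 35.1 and 32.6 at 20 min in the wild type. It rose 2.39- to 4.1-fold at 20 min over the strains. ATG36, the receptor of peroxisomes, went from 12.7 and 16 FPKM to 28.2 and 34.9 at 20 min in the wild type, and rose in all strains at that time, 2.13- to 3.59-fold. In the wild type at 10 min it was not called (adjusted p = 0.0689, and 6.24e-05 with the block).

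ATG32, the receptor of mitochondria, followed another course. In the wild type it was listed at 26.1 and 35.8 FPKM at 0 min, 47 and 55.7 at 10 min, and 31.6 and 37.4 at 20 min. Both libraries were above the start at 10 min and overlapped it at 20 min. The change at 10 min, a log2 change of 0.72 ± 0.21 (SE, adjusted p = 0.014), was not called without WT at 0 min, library 0 (0.154) or WT at 10 min, library 1 (0.108). In Mut1 the values were 22.4 and 29.1 FPKM at 0 min, 20.8 and 24.1 at 10 min, and 23.9 and 29.5 at 20 min. In Mut2 they were 22.7 and 29 FPKM at 0 min, 19 and 24.8 at 10 min, and 24.5 and 27.1 at 20 min. Neither mutant was called at 10 min, with log2 changes of -0.18 ± 0.21 and -0.23 ± 0.21 (SE, adjusted p = 0.58 and 0.461). With the block Mut2 was called lower at 10 min (adjusted p = 0.0328). Mut3 lay between, at 24.7 and 33.4 FPKM at 0 min, 36.6 and 43.1 at 10 min, and 30.8 and 32.3 at 20 min, with a log2 change of 0.45 ± 0.21 at 10 min (SE, adjusted p = 0.115, and 0.000377 with the block). ATG11, the scaffold to which the receptors bind, was listed at 8.64 and 5.65 FPKM at 0 min, 9.08 and 7.74 at 10 min, and 11.5 and 8.27 at 20 min in the wild type. It was called in no strain, its largest log2 change being 0.47 ± 0.29 in Mut2 at 20 min (SE, adjusted p = 0.227, and 0.00632 with the block). With the block it was called at 20 min in the wild type and Mut3 too (adjusted p = 0.0103 and 0.0394).

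Membrane supply showed the opposite movements of ATG9 and ATG41. Of the 6 members of this step, 1 rose and 1 fell in the wild type at 10 min, and 3 rose and 1 fell at 20 min. ATG9, the membrane protein whose vesicles seed the autophagosome, was listed at 3.32 and 2.96 FPKM at 0 min, 5.73 and 5.69 at 10 min, and 12.5 and 11.3 at 20 min. The times did not overlap, with a log2 change of 0.70 ± 0.13 (SE, adjusted p = 0.000492) at 10 min and a log2 change of 1.64 ± 0.13 (SE, adjusted p = 7.68e-08) at 20 min. In Mut1 it was listed at 3.31 and 3.37 FPKM at 0 min, 11.8 and 10.3 at 10 min, and 12.5 and 12.6 at 20 min. Mut2 was listed at 2.71 and 3.3 FPKM at 0 min, 8.73 and 9.91 at 10 min, and 12.1 and 12.9 at 20 min. Mut3 was listed at 3.63 and 3.07 FPKM at 0 min, 7.33 and 8.17 at 10 min, and 15.1 and 13.7 at 20 min. By 10 min Mut1 had nearly reached its level of 20 min, and the wild type had not.

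ATG41, whose protein binds Atg9, fell. In the wild type it was listed at 78.7 and 122 FPKM at 0 min, 31.5 and 51.5 at 10 min, and 10.4 and 12.6 at 20 min, lower at each time without overlap. The decrease was 7.96-fold at 20 min, a log2 change of -2.99 ± 0.42 (SE, adjusted p = 3.88e-05). In Mut1 it was listed at 60.8 and 105 FPKM at 0 min, 30.4 and 50.1 at 10 min, and 18 and 25.7 at 20 min. Mut2 was listed at 89.1 and 142 FPKM at 0 min, 32.8 and 61.8 at 10 min, and 33.2 and 42.9 at 20 min. Mut3 was listed at 64.5 and 122 FPKM at 0 min, 32.6 and 44.4 at 10 min, and 17.3 and 23.1 at 20 min. By 20 min the decrease of Mut1 was 3.6-fold, that of Mut2 2.93-fold and that of Mut3 4.26-fold (adjusted p = 0.00275, 0.00903 and 0.000854). The Mut2 value was not called without Mut2 at 0 min, library 1 (0.0841) or Mut2 at 20 min, library 0 (0.0619), the latter being the library that stood apart. At 10 min the wild type, Mut2 and Mut3 were called lower and Mut1 was not (adjusted p = 0.0855, and 2.56e-05 with the block). Those calls were lost in the wild type without WT at 0 min, library 1 (0.19) or WT at 10 min, library 0 (0.208). They were lost in Mut2 without Mut2 at 0 min, library 1 (0.182) or Mut2 at 10 min, library 0 (0.233), and in Mut3 without Mut3 at 0 min, library 1 (0.298), Mut3 at 10 min, library 0 (0.202) or Mut3 at 10 min, library 1 (0.0683).

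ATG2, the lipid transfer protein, was listed at 4.08 and 4.47 FPKM at 0 min, 4.82 and 5.5 at 10 min, and 9.08 and 11.4 at 20 min in the wild type. Its log2 change at 10 min, 0.22 ± 0.16 (SE), was not called (adjusted p = 0.311), and it rose 2.12-fold at 20 min (adjusted p = 4.78e-05). In the mutants it rose at both times, 1.61- to 2.05-fold at 10 min. ATG18, the phosphoinositide-binding partner of Atg2, was listed at 17.4 and 24.9 FPKM at 0 min, 17.7 and 29.4 at 10 min, and 33.1 and 51.7 at 20 min in the wild type. Its call at 20 min, a log2 change of 0.96 ± 0.37 (SE, adjusted p = 0.0482), was lost without WT at 0 min, library 0 (0.261) or WT at 20 min, library 1 (0.305), and with no filter on low features (0.0511). With the block ATG18 was called in the mutants at both times (adjusted p = 9.57e-06 to 0.0084 at 10 min and 6.04e-07 to 7.12e-05 at 20 min). ATG23 and ATG27 serve the traffic of Atg9. ATG23 was called in Mut3 at 20 min alone, a log2 change of 1.54 ± 0.49 (SE, adjusted p = 0.018). That call was lost without Mut3 at 0 min, library 0 (0.152) or Mut3 at 20 min, library 1 (0.107). With the block its adjusted p was 2.22e-06 to 0.0207 over both times and all strains. ATG27 was called at neither time, at 158 and 181 FPKM at 0 min, 175 and 206 at 10 min, and 191 and 200.5 at 20 min in the wild type.

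Of the 2 members counted for the phosphatidylinositol 3-kinase, the one that defines its autophagy complex rose in every strain. ATG14, that subunit, was listed at 5.97 and 3.83 FPKM at 0 min, 18.4 and 15.1 at 10 min, and 15 and 15.7 at 20 min in the wild type, where the salt times overlapped each other and not 0 min. It rose 3.05-fold at 10 min, a log2 change of 1.61 ± 0.26 (SE, adjusted p = 0.000216), and 2.82- to 4.96-fold at 20 min over the strains, most in Mut3. ATG38, which joins the parts of the complex, was listed at 14.6 and 9.55 FPKM at 0 min, 10.3 and 15.8 at 10 min, and 20.1 and 15.9 at 20 min in the wild type. Its groups overlapped and it was not called there (adjusted p = 0.798 and 0.0827), but was called at 20 min with the block (adjusted p = 0.0333). In Mut2 it went from 8.13 and 6.95 FPKM to 27.8 and 17.6 at 20 min, a log2 change of 1.44 ± 0.25 (SE, adjusted p = 0.000298).

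Members that act in sorting and at the vacuole also rose. ATG20, a sorting nexin of the selective routes, was listed at 11.6 and 11.3 FPKM at 0 min, 39.5 and 34.3 at 10 min, and 49.2 and 33.8 at 20 min in the wild type. It rose 2.69- to 3.28-fold at 10 min over the strains. ATG21, a phosphoinositide-binding protein that helps place the Atg8 machinery, rose 2.31- to 2.9-fold at 20 min. ATG33, a mitochondrial membrane protein of mitophagy, was listed at 37 and 63.4 FPKM at 0 min, 55.1 and 100.4 at 10 min, and 114 and 175 at 20 min in the wild type. It was called at 20 min in every strain and at 10 min in none. The log2 change of the wild type at 20 min was 1.52 ± 0.44 (SE, adjusted p = 0.01). With the block it was called at 10 min in every strain as well (adjusted p = 2.01e-06 to 0.000466). The call at 20 min was lost in the wild type without WT at 0 min, library 0 (0.109) or WT at 20 min, library 1 (0.098). It was lost in Mut1 without Mut1 at 20 min, library 1 (0.0508), and in Mut2 without Mut2 at 0 min, library 0 (0.0623) or Mut2 at 20 min, library 1 (0.0581). ATG44, the fission protein of mitochondria, had the highest mean of all members at 762 FPKM over the 24 libraries, and was not called. It was listed at 664 and 712 FPKM at 0 min, 759.6 and 748 at 10 min, and 649.6 and 647 at 20 min in the wild type.

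ATG15, the lipase that opens autophagic bodies in the vacuole, was listed at 10.1 and 16.1 FPKM at 0 min, 38 and 59.9 at 10 min, and 48 and 72.3 at 20 min in the wild type. It was called at both times in every strain, 3.53-fold at 10 min in the wild type, a log2 change of 1.82 ± 0.39 (SE, adjusted p = 0.00213), and 2.67- to 4.34-fold at 20 min over the strains. At 10 min the call was lost in Mut1 without Mut1 at 0 min, library 0 (0.0863) or Mut1 at 10 min, library 1 (0.115), in Mut2 without Mut2 at 0 min, library 0 (0.0809) or Mut2 at 10 min, library 1 (0.066), and in Mut3 without Mut3 at 0 min, library 0 (0.0959) or Mut3 at 10 min, library 1 (0.0789). At 20 min it was lost in Mut1 without Mut1 at 20 min, library 1 (0.0898) and in Mut2 without Mut2 at 0 min, library 0 (0.113) or Mut2 at 20 min, library 1 (0.11). ATG42, a vacuolar carboxypeptidase, was listed at 33.5 and 46.2 FPKM at 0 min, 73 and 102 at 10 min, and 132 and 150.3 at 20 min in the wild type. It rose 3.47- to 4.41-fold at 20 min over the strains. Its change in the wild type at 10 min, a log2 change of 1.11 ± 0.26 (SE, adjusted p = 0.00379), was lost without WT at 0 min, library 0 (0.0521) or WT at 10 min, library 1 (0.0527). ATG22, which lets amino acids out of the vacuole, was called in Mut3 at 20 min alone, a log2 change of 0.86 ± 0.27 (SE, adjusted p = 0.0162). That call was lost without Mut3 at 0 min, library 0 (0.127) or Mut3 at 20 min, library 1 (0.133). With the block ATG22 was called higher at 20 min in every strain (adjusted p = 1.06e-05 to 0.00156). ATG26, a sterol glucosyltransferase, rose 1.72- to 1.99-fold at 20 min, a narrow range over the strains.

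ATG45, whose protein is described as the receptor of glycogen, was not called in any strain, and the libraries of its groups lay far apart. It was listed at 11.4 and 25.1 FPKM at 0 min, 23.7 and 52.5 at 10 min, and 25.6 and 43.1 at 20 min in the wild type. Mut1 was listed at 19.3 and 34.7 FPKM at 0 min, 17.6 and 25.6 at 10 min, and 15.2 and 24.7 at 20 min. Mut2 was listed at 16.6 and 40.3 FPKM at 0 min, 19.2 and 35.5 at 10 min, and 13.5 and 28.4 at 20 min. In Mut3 the values were 9.91 and 19 FPKM at 0 min, 25.2 and 35.9 at 10 min, and 20.8 and 33.2 at 20 min. Within a library number the wild type and Mut3 were higher in salt, and Mut1 was lower. With the block, log2 changes at 10 min of 1.02 in the wild type and 1.08 in Mut3 were called (adjusted p = 6.46e-05 and 4.03e-05), and without it they were not (adjusted p = 0.195 and 0.177). At 20 min the block called ATG45 higher in the wild type and Mut3 (adjusted p = 0.000107 and 0.000164) and lower in Mut1 and Mut2, with log2 changes of -0.40 and -0.38 (adjusted p = 0.0401 and 0.0467).

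The change between 10 and 20 min showed whether members went on moving. From 10 to 20 min 9 members of the wild type were higher at the later time and 1 was lower (6.13% and 8.08% of all features), and with the block 22 and 2 (22.8% and 19.0%). In Mut3 the counts were 10 and 0 (6.18% and 8.0%), and with the block 22 and 3 (24.2% and 18.1%). In Mut1 4 were higher and 0 lower (1.38% and 1.62%), and with the block 11 and 2 (10.2% and 10.0%). In Mut2 3 were higher and 0 lower (2.14% and 2.17%), and with the block 12 and 1 (14.7% and 13.7%). All 4 higher members of Mut1 were receptors, namely ATG19, ATG34, ATG39 and ATG40. The largest increase from 10 to 20 min in the wild type was that of ATG7, a log2 change of 1.25 ± 0.19 (SE, adjusted p = 0.000739), and in Mut1 it was 0.32 ± 0.19 (SE, adjusted p = 0.631, and 0.0217 with the block). ATG8 was 1.99-fold higher in the wild type (adjusted p = 0.0013) and 2.14-fold in Mut3 (adjusted p = 0.000613), and its log2 change was 0.43 ± 0.17 in Mut1 (adjusted p = 0.273, 0.0103 with the block). ATG39 was higher at 20 than at 10 min in all 3 mutants, with log2 changes of 1.01 ± 0.10, 0.88 ± 0.10 and 0.53 ± 0.10 in Mut1, Mut2 and Mut3 (SE, adjusted p = 0.000132, 0.000422 and 0.00269, the last 0.0526 after rescaling the columns). The wild type had 0.29 ± 0.10 (SE, adjusted p = 0.0762, 0.0153 with the block). The wild-type total of 10 became 5 without WT at 20 min, library 0 and 6 without WT at 20 min, library 1. The Mut1 total of 4 became 1 without Mut1 at 10 min, library 0, 1 without Mut1 at 10 min, library 1, 2 without Mut1 at 20 min, library 0 and 1 without Mut1 at 20 min, library 1. The Mut3 total of 10 became 4 without Mut3 at 10 min, library 0 and 6 without Mut3 at 20 min, library 0. The Mut1 call of ATG19 was lost without Mut1 at 10 min, library 0 (0.073), Mut1 at 10 min, library 1 (0.109), Mut1 at 20 min, library 0 (0.0663) or Mut1 at 20 min, library 1 (0.087). That of ATG34 was lost without Mut1 at 10 min, library 0 (0.0793), Mut1 at 10 min, library 1 (0.0729), Mut1 at 20 min, library 0 (0.0568) or Mut1 at 20 min, library 1 (0.0695), and that of ATG40 was lost without Mut1 at 10 min, library 0 (0.17), Mut1 at 10 min, library 1 (0.198) or Mut1 at 20 min, library 1 (0.406). After rescaling these 3 calls were lost as well (adjusted p 0.138, 0.131 and 0.156).

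The second comparison set each mutant against the wild type before salt. ATG8 and ATG39 were the members called. Of the 37, 2 were higher in Mut1 (3.07% of all features), 2 in Mut2 (2.89%) and 1 in Mut3 (1.20%), and 0 were lower in each (1.56%, 1.62% and 0.425% of all features). Counts of 1 or 2 in 37 are near these shares. With the block 8, 8 and 6 were higher (11.6%, 12.2% and 5.30%) and 1, 2 and 0 lower (6.49%, 8.68% and 2.61%). At 0 min ATG8 was listed at 30.3 and 25.7 FPKM in the wild type, 86.5 and 77.7 in Mut1, 65.1 and 62.3 in Mut2 and 52.1 and 39.4 in Mut3. All 6 mutant libraries were above both wild-type libraries. The level was 2.87-fold higher in Mut1, a log2 change of 1.52 ± 0.17 (SE, adjusted p = 4.93e-05), 2.24-fold higher in Mut2 (adjusted p = 0.00058), and 0.68 ± 0.17 on the log2 scale in Mut3 (SE), which was not called (adjusted p = 0.0611, 0.000688 with the block). The Mut2 total of 2 became 1 without WT at 0 min, library 1 and 1 without Mut2 at 0 min, library 0. The Mut3 total of 1 became 2 without Mut3 at 0 min, library 1.

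ATG39 was 1.55-fold higher in Mut1, a log2 change of 0.63 ± 0.10 (SE, adjusted p = 0.00128), 1.43-fold in Mut2 (adjusted p = 0.00639) and 1.52-fold in Mut3 (adjusted p = 0.00326) before salt, all at low FPKM. The Mut2 call was lost without WT at 0 min, library 1 (0.075) or Mut2 at 0 min, library 0 (0.0514) and the Mut3 call without WT at 0 min, library 1 (0.0584). When the columns were rescaled by the median ratio of their genes, the adjusted p became 0.059 in Mut2 and 0.0621 in Mut3. The comparisons of the 3 mutants share the wild-type libraries, so their agreement is not 3 separate observations.

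At 10 min in salt more members separated Mut1 and Mut2 from the wild type. In Mut1 8 members were higher and 1 lower (6.73% and 7.01% of all features), in Mut2 5 and 1 (5.13% and 6.67%), and in Mut3 1 and 0 (1.05% and 0.676%). With the block the counts were 18 and 5, 14 and 5, and 13 and 1 (22.0% and 20.9%, 20.2% and 19.4%, and 6.73% and 5.79% of all features). ATG2, ATG7, ATG8, ATG9 and ATG31 were higher and ATG32 was lower in both Mut1 and Mut2, and ATG4, ATG17 and ATG34 were higher in Mut1 as well. The Mut1 call of ATG4 was lost without WT at 10 min, library 0 (0.15) or Mut1 at 10 min, library 1 (0.166). That of ATG17 was lost without WT at 10 min, library 0 (0.061), WT at 10 min, library 1 (0.0821) or Mut1 at 10 min, library 1 (0.158), and that of ATG34 was lost without WT at 10 min, library 1 (0.0634) and after rescaling (0.116). These members come from initiation, membrane supply, conjugation and receptors alike. The Mut2 total of 6 became 3 without WT at 10 min, library 0 and 2 without Mut2 at 10 min, library 1. The Mut3 total of 1 became 0 without WT at 10 min, library 0, 0 without WT at 10 min, library 1, 0 without Mut3 at 10 min, library 0 and 0 without Mut3 at 10 min, library 1.

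ATG9 was listed at 11.8 and 10.3 FPKM in Mut1 and 8.73 and 9.91 in Mut2 at 10 min, against 5.73 and 5.69 in the wild type. It was 1.8-fold higher in Mut1, a log2 change of 0.84 ± 0.13 (SE, adjusted p = 0.000533), and 1.54-fold higher in Mut2 (adjusted p = 0.00504), the latter lost without Mut2 at 10 min, library 1 (0.0581). ATG7 was listed at 21 and 23.8 FPKM in Mut1 and 17 and 23.6 in Mut2, against 9.98 and 10.9. It was 2.04-fold higher in Mut1, a log2 change of 1.03 ± 0.19 (SE, adjusted p = 0.00288), and 1.84-fold in Mut2 (adjusted p = 0.0086), lost without WT at 10 min, library 0 (0.0667) or Mut2 at 10 min, library 1 (0.11). ATG8 was 2.04-fold higher in Mut1 and 1.94-fold in Mut2 (adjusted p = 0.00109 and 0.00193), beside 2.87- and 2.24-fold before salt. ATG31 was 2.3-fold higher in Mut1 (adjusted p = 0.00986) and 1.92-fold in Mut2 (adjusted p = 0.042). The Mut1 call was lost without WT at 10 min, library 0 (0.0903) or Mut1 at 10 min, library 1 (0.102). The Mut2 call was lost without WT at 10 min, library 0 (0.236), WT at 10 min, library 1 (0.0769) or Mut2 at 10 min, library 1 (0.299), and stood at the threshold without library 0 of Mut2 at 20 min (0.05005, not called). ATG2 was 1.74-fold higher in Mut1 (adjusted p = 0.00366) and 1.56-fold in Mut2 (adjusted p = 0.015), the Mut2 call lost without WT at 10 min, library 0 (0.111) or Mut2 at 10 min, library 1 (0.15). No library of either mutant overlapped the wild type in these genes.

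ATG32 went the other way. At 10 min it was listed at 20.8 and 24.1 FPKM in Mut1 and 19 and 24.8 in Mut2, against 47 and 55.7 in the wild type and 36.6 and 43.1 in Mut3. All 4 libraries of Mut1 and Mut2 were below all 4 of the other strains. The level was 2.23-fold lower in Mut1, a log2 change of -1.16 ± 0.21 (SE, adjusted p = 0.00204), and 2.29-fold lower in Mut2, a log2 change of -1.20 ± 0.21 (SE, adjusted p = 0.00186). At 0 min the log2 differences were -0.25 ± 0.21 and -0.24 ± 0.21 (SE) and were not called (adjusted p = 0.848 and 0.798). Mut3 had a single member called at 10 min, ATG39, a log2 change of 0.44 ± 0.10 (SE, adjusted p = 0.0409), which was not called without WT at 10 min, library 0 (0.205), WT at 10 min, library 1 (0.197), Mut3 at 10 min, library 0 (0.0932) or Mut3 at 10 min, library 1 (0.401), nor after rescaling (0.217).

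**Figure D3:**
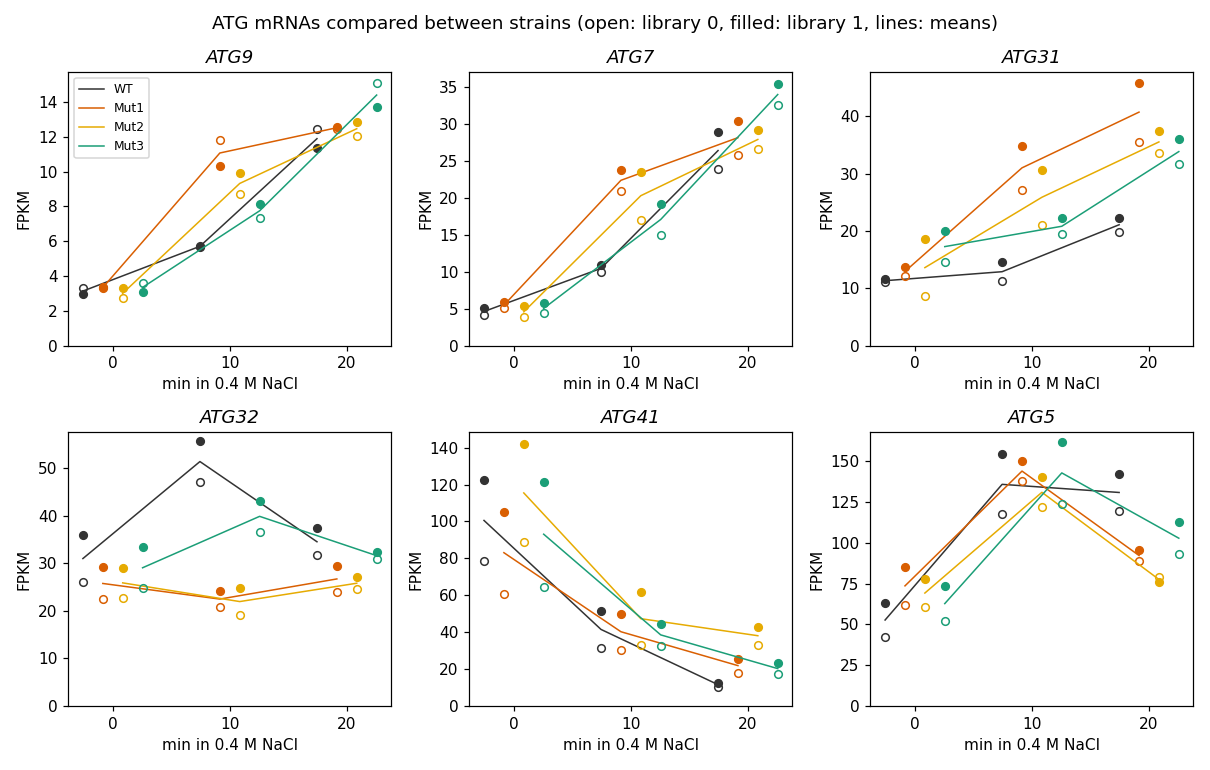
FPKM (linear axis from 0) of ATG9, ATG7, ATG31, ATG32, ATG41 and ATG5 at 0, 10 and 20 min in 0.4 M NaCl, drawn as in the plot of the rising genes, with open points for library 0, filled points for library 1 and lines through the group means. At 10 min ATG9, ATG7 and ATG31 lie higher and ATG32 lower in Mut1 and Mut2 than in the wild type, and ATG41 falls with time in all 4 strains.

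At 20 min fewer members differed than at 10 min in Mut1 and Mut2, and 1 more in Mut3, and the shares of all features moved the same way. In Mut1 2 were higher and 0 lower (3.84% and 3.41% of all features), in Mut2 3 and 1 (4.62% and 3.79%), and in Mut3 2 and 0 (1.76% and 1.53%). Counts this small are near these shares. With the block they were 9 and 5, 8 and 6, and 17 and 0 (17.1% and 15.5%, 18.9% and 16.5%, and 11.7% and 9.36% of all features). ATG39 was higher in all 3, 1.77-fold in Mut1, a log2 change of 0.82 ± 0.10 (SE, adjusted p = 0.0002), 1.6-fold in Mut2 (adjusted p = 0.000966) and 1.61-fold in Mut3 (adjusted p = 0.00197). ATG34 was 1.57-fold higher in Mut1 (adjusted p = 0.00392) and 1.38-fold in Mut2 (adjusted p = 0.0288). The first call was lost without WT at 20 min, library 1 (0.0577), and the second without WT at 20 min, library 0 (0.0612), WT at 20 min, library 1 (0.229) or Mut2 at 20 min, library 0 (0.28). After rescaling ATG34 was called in neither (adjusted p 0.0736 and 0.214). ATG41 was 3.11-fold higher in Mut2 than in the wild type, a log2 change of 1.64 ± 0.42 (SE, adjusted p = 0.0279), 33.2 and 42.9 FPKM against 10.4 and 12.6. The call was lost without WT at 20 min, library 0 (0.142), WT at 20 min, library 1 (0.113), Mut2 at 20 min, library 0 (0.0867) or Mut2 at 20 min, library 1 (0.124). ATG27 was 1.42-fold lower in Mut2 (adjusted p = 0.0359), which was lost without WT at 20 min, library 0 (0.104), WT at 20 min, library 1 (0.209), Mut2 at 20 min, library 0 (0.154) or Mut2 at 20 min, library 1 (0.0964). The Mut1 total of 2 became 1 without WT at 20 min, library 1. The Mut2 total of 4 became 1 without WT at 20 min, library 0, 1 without WT at 20 min, library 1, 1 without Mut2 at 20 min, library 0 and 2 without Mut2 at 20 min, library 1. The Mut3 total of 2 became 1 without WT at 20 min, library 1, 1 without Mut3 at 20 min, library 0 and 1 without Mut3 at 20 min, library 1. Library 0 of Mut2 at 20 min is the one that stood apart. In Mut3 ATG8 was listed at 503 and 425 FPKM against 299.7 and 244 in the wild type, 1.71-fold higher, a log2 change of 0.77 ± 0.17 (SE, adjusted p = 0.02). That call was lost without WT at 20 min, library 1 (0.205), Mut3 at 20 min, library 0 (0.2) or Mut3 at 20 min, library 1 (0.0611), and after rescaling (0.202).

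**Figure D4:**
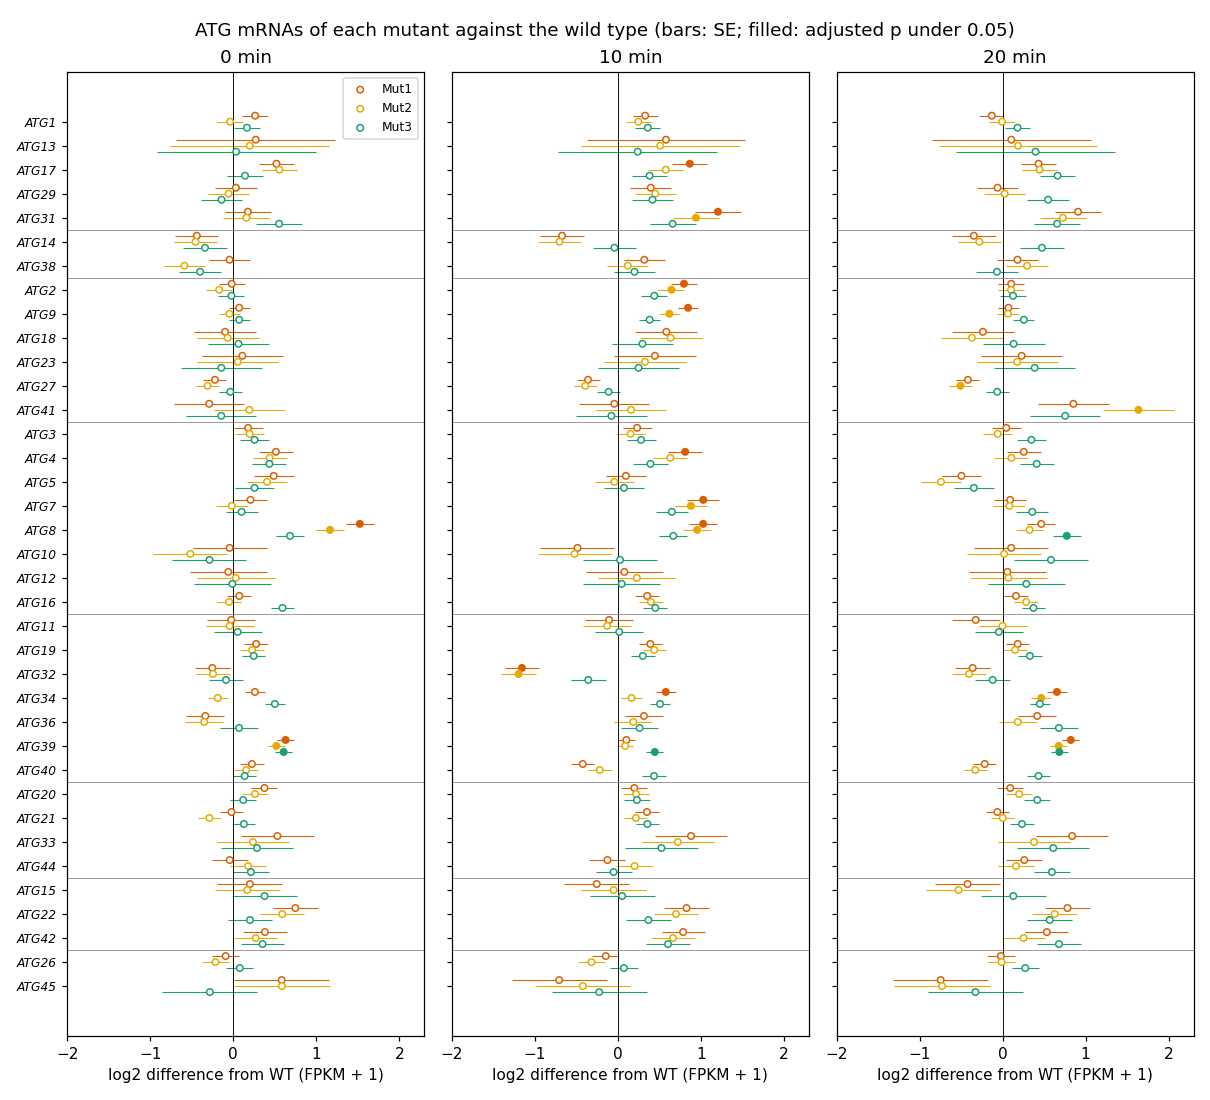
Log2 difference in FPKM plus 1 between each mutant (colour) and the wild type for the ATG genes (rows, by step), in a panel for each of 0, 10 and 20 min, with bars of 1 SE and filled points where the adjusted p was under 0.05. ATG8 and ATG39 differ before salt, ATG2, ATG7, ATG8, ATG9 and ATG31 are higher and ATG32 lower in Mut1 and Mut2 at 10 min, and ATG39 is higher in all 3 mutants at 20 min.

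Other members were called different from the wild type with the block and not without it, and ATG22, ATG33, ATG42 and ATG16 are examples chosen after their values were seen. ATG22, the vacuolar exporter, was listed at 22.1 and 30.4 FPKM at 0 min, 21.2 and 30.6 at 10 min, and 33.9 and 40.1 at 20 min in the wild type. Mut1 was listed at 37.6 and 51.9 FPKM at 0 min, 42.4 and 49.9 at 10 min, and 53.8 and 76.3 at 20 min. The Mut1 libraries were higher at every time without overlap. At 20 min the log2 differences of Mut1, Mut2 and Mut3 from the wild type were 0.78, 0.63 and 0.57, with adjusted p of 0.102, 0.187 and 0.382, and 0.000196, 0.000944 and 0.00336 with the block. ATG33, of mitophagy, was listed at 61.5 and 80.9 FPKM at 0 min, 112 and 170.3 at 10 min, and 197 and 325 at 20 min in Mut1. Its log2 differences at 20 min were 0.84, 0.38 and 0.61 (adjusted p of 0.336, 0.727 and 0.704, and 0.000147, 0.0234 and 0.00254 with the block). ATG42, the carboxypeptidase, was listed at 134 and 167 FPKM in Mut1 at 10 min, 117 and 161 in Mut2 and 117 and 149 in Mut3, against 73 and 102 in the wild type. All 6 mutant libraries were above both wild-type libraries, with log2 differences of 0.78, 0.66 and 0.60 (adjusted p of 0.0621, 0.127 and 0.456, and 1.54e-05, 7.34e-05 and 0.000676 with the block). ATG16, the partner of the Atg12 and Atg5 conjugate, was listed before salt in Mut3 at 10.2 and 10.1 FPKM against 5.63 and 7.25 in the wild type, a log2 difference of 0.59 ± 0.14 (SE, adjusted p = 0.0597, and 0.0137 with the block).

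The third comparison asked whether the change in salt itself differed between a mutant and the wild type. At 10 min 1 member passed in Mut1, with a larger rise than in the wild type (0.896% of all features in that direction), and 0 with a smaller one (1.70%). None passed in Mut2 (0.692% and 1.73% of all features) or in Mut3 (0.0629% and 0.126%) by limma. With the block the counts were 7 and 5 in Mut1, 7 and 3 in Mut2 and 0 and 0 in Mut3 (7.41% and 8.98%, 7.19% and 8.37%, and 0.330% and 0.755% of all features). At 20 min 0 and 1 passed in Mut1 (0.881% and 1.62%), and none in Mut2 (1.43% and 1.70%) or Mut3 (0.0786% and 0.220%) by limma. With the block there were 2 and 4, 4 and 4, and 2 and 0 (6.62% and 8.85%, 12.5% and 12.8%, and 1.79% and 1.93%).

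ATG9 was the member that passed at 10 min. Its log2 change was 0.70 ± 0.13 in the wild type and 1.47 ± 0.13 in Mut1 (SE), a difference of 0.77 ± 0.18 (SE, adjusted p = 0.0327, and 0.00546 with the block). The call was lost without WT at 0 min, library 0 (0.129), WT at 0 min, library 1 (0.056), WT at 10 min, library 0 (0.0885), WT at 10 min, library 1 (0.0951), Mut1 at 0 min, library 0 (0.0991), Mut1 at 0 min, library 1 (0.0864), Mut1 at 10 min, library 0 (0.161) or Mut1 at 10 min, library 1 (0.0571), which are all 8 libraries concerned. It was lost after rescaling as well (0.126). ATG8 was the member that passed at 20 min. Its log2 change was 3.23 ± 0.17 in the wild type and 2.17 ± 0.17 in Mut1 (SE), a difference of -1.06 ± 0.24 (SE, adjusted p = 0.0259, and 0.0003 with the block). On the log2 scale the levels at 20 min lay nearer each other than those at 0 min. They were 353 and 395 FPKM in Mut1 against 299.7 and 244 in the wild type. In FPKM the means of Mut1 and the wild type lay further apart at 20 min, 374 and 272, than at 0 min, 82.1 and 28.0. The call was lost without WT at 0 min, library 1 (0.121), WT at 20 min, library 0 (0.124), Mut1 at 0 min, library 0 (0.114), Mut1 at 0 min, library 1 (0.0586), Mut1 at 20 min, library 0 (0.125) or Mut1 at 20 min, library 1 (0.0501), and after rescaling (0.255).

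Other differences in response passed with the block and not without it, and those below are examples. At 20 min the counts of members that passed with the block in Mut1 and Mut2 were near the shares of all features. For ATG32 at 10 min the difference in log2 change was -0.90 ± 0.29 in Mut1 and -0.95 ± 0.29 in Mut2 (SE), with adjusted p of 0.153 and 0.129. They were 0.000201 and 0.000127 with the block, and 0.00132 and 0.000762 after rescaling. For ATG7 at 10 min the differences were 0.82 ± 0.27 and 0.90 ± 0.27 (adjusted p = 0.167 and 0.124, and 0.000562 and 0.00029 with the block). For ATG5 at 20 min they were -0.98 ± 0.34 and -1.15 ± 0.34 (adjusted p = 0.228 and 0.0924, and 0.00225 and 0.000523 with the block). For ATG45 at 10 min they were -1.29 ± 0.81 and -1.01 ± 0.81 (adjusted p = 0.657 and 0.848, and 0.00145 and 0.00783 with the block), its groups being split by library number. For ATG41 at 20 min they were 1.14 ± 0.60 in Mut1, 1.44 ± 0.60 in Mut2 and 0.90 ± 0.60 in Mut3 (adjusted p = 0.587, 0.254 and 1, and 0.00171, 0.000213 and 0.0246 with the block), a smaller fall in each mutant by that fit. For ATG36, the receptor of peroxisomes, they were 0.75 ± 0.32 in Mut1, 0.53 ± 0.32 in Mut2 and 0.61 ± 0.32 in Mut3 at 20 min (adjusted p = 0.396, 0.508 and 1, and 0.00102, 0.0069 and 0.0141 with the block). For ATG40, a receptor of the endoplasmic reticulum, the difference in Mut1 at 10 min was -0.65 ± 0.20 (adjusted p = 0.128, and 0.0288 with the block), from 12.6 and 9.89 FPKM to 19.1 and 18.1 in Mut1.

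Genes that work with the ATG proteins but do not carry the name were taken as a list of 55, all tested: subunits of the 3-kinase, fusion factors, vacuolar enzymes, TORC1 and other regulators. In the wild type 13 rose and 6 fell at 10 min, beside 17.6% and 17.6% of all features, and 25 rose and 3 fell at 20 min, beside 24.5% and 22.5%. With the block 28 and 14 passed at 10 min (31.8% and 29.8% of all features). The list's median log2 change was 0.28 and 0.50, below the 0.74 and 1.32 of the ATG genes. In Mut1 18 rose and 3 fell at 10 min (15.8% and 15.5% of all features) and 20 rose and 1 fell at 20 min (20.2% and 19.5%). In Mut2 16 rose and 2 fell (16.3% and 15.4%), then 22 and 2 (21.5% and 18.2%). In Mut3 19 rose and 5 fell (17.5% and 16.7%), then 29 and 3 (25.3% and 22.4%). PRB1, the vacuolar protease B, was listed at 40.9 and 69.4 FPKM at 0 min, 196 and 327 at 10 min, and 253 and 402 at 20 min in the wild type, 4.68-fold and 5.89-fold above 0 min (adjusted p = 0.000741 and 0.000148). APE1, the aminopeptidase that Atg19 carries, was listed at 21.6 and 28 FPKM at 0 min, 78.8 and 90.1 at 10 min, and 124 and 132 at 20 min, and rose 3.33-fold and 5.03-fold (adjusted p = 1.78e-05 and 5.3e-07). AMS1, the mannosidase that Atg34 carries, went from 6.81 and 6.85 FPKM to 32.8 and 34.8 at 20 min, 4.44-fold (adjusted p = 5.11e-09). In the wild type the genes of both cargo enzymes thus rose in the same libraries as those of their receptors, without overlap between 0 and 20 min. YAK1, a stress kinase, had the largest change of the list, from 3.42 and 15.2 FPKM to 35.6 and 131 at 10 min, 8.21-fold (adjusted p = 0.0458), but was split by library number and was not called without WT at 0 min, library 0 (0.294) or WT at 10 min, library 1 (0.292). At 10 min 10 genes of the list were higher and 2 lower in Mut1 than in the wild type (6.73% and 7.01% of all features), 6 and 1 in Mut2 (5.13% and 6.67%), and 1 and 0 in Mut3 (1.05% and 0.676%). With the block these were 26 and 5 (22.0% and 20.9%), 22 and 4 (20.2% and 19.4%), and 10 and 0 (6.73% and 5.79%). The Mut1 total of 12 became 4 without WT at 10 min, library 0, 7 without WT at 10 min, library 1, 4 without Mut1 at 10 min, library 0 and 4 without Mut1 at 10 min, library 1. The Mut2 total of 7 became 4 without WT at 10 min, library 1 and 3 without Mut2 at 10 min, library 0. The Mut3 total of 1 became 0 without WT at 10 min, library 0, 0 without WT at 10 min, library 1, 0 without Mut3 at 10 min, library 0 and 0 without Mut3 at 10 min, library 1. For 10 against 0 min, the wild-type total of 19 became 11 without WT at 10 min, library 1. The Mut1 total of 21 became 13 without Mut1 at 0 min, library 0. That of Mut3, 24, became 15 without Mut3 at 10 min, library 1. For 20 against 0 min, the Mut1 total of 21 became 13 without Mut1 at 0 min, library 0. That of Mut3, 32, became 18 without Mut3 at 0 min, library 0.

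The genes of the factors whose motifs are shown above moved in different directions in the wild type, and those other than MSN2 were added after their values were seen. MSN2, the stress factor, was listed at 29.1 and 32 FPKM at 0 min, 149 and 166 at 10 min, and 122 and 124 at 20 min, 5.01-fold higher at 10 min (adjusted p = 1.24e-08). MSN4, its paralogue, was listed at 26.4 and 39.1 FPKM at 0 min, 17.8 and 25.5 at 10 min, and 23.2 and 30.8 at 20 min. Its log2 changes of -0.57 ± 0.33 and -0.26 ± 0.33 (SE) were not called (adjusted p = 0.202 and 0.561), and with the block it was called lower at both times (0.000113 and 0.0251). After rescaling MSN4 was called lower at 10 min (0.0239). GCN4 was listed at 2377 and 2214 FPKM at 0 min, 1036 and 987 at 10 min, and 790.0 and 699.8 at 20 min, and fell at both times, with log2 changes of -1.18 ± 0.11 and -1.62 ± 0.11 (SE, adjusted p = 1.2e-06 and 2.55e-08). RPH1 was listed at 14.7 and 21.2 FPKM at 0 min, 31.1 and 42.7 at 10 min, and 30.9 and 43 at 20 min, and rose with log2 changes of 1.00 ± 0.34 and 1.00 ± 0.34 (SE, adjusted p = 0.0348 and 0.0269). Its call was lost at 10 min without WT at 0 min, library 0 (0.223) or WT at 10 min, library 1 (0.209), and at 20 min without WT at 0 min, library 0 (0.188) or WT at 20 min, library 1 (0.186). UME6 was listed at 4.53 and 12.1 FPKM at 0 min, 13 and 22.5 at 10 min, and 15.4 and 21.2 at 20 min. Its log2 changes of 1.09 ± 0.55 and 1.17 ± 0.55 (SE) were not called (adjusted p = 0.145 and 0.0977), and with the block it was called higher (0.000178 and 7.15e-05), as it was at 20 min after rescaling (0.0467). RNA levels of these genes do not show the activity of the factors.

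Some members differed between the libraries of a group by as much as between times. Over the 12 groups, library 1 minus library 0 was 1.43 ± 0.07 on the log2 scale for ATG13 (SE over groups, n = 12), higher in 12 of 12 groups. It was 0.84 ± 0.07 for ATG45, 0.69 ± 0.08 for ATG23, 0.63 ± 0.05 for ATG33, 0.62 ± 0.10 for ATG12 and 0.60 ± 0.06 for ATG41. ATG11 was the clearest case of the other direction, at -0.39 ± 0.05, higher in library 0 in 11 of 12 groups. The median over the 37 members was 0.17, beside 0.16 over all tested features. ATG8, at -0.17 ± 0.04, had a small but regular difference, with library 1 higher in 1 of 12 groups. ATG39, at 0.02 ± 0.03, was little affected. What the number stands for is not given in the sources used here.

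**Figure D5:**
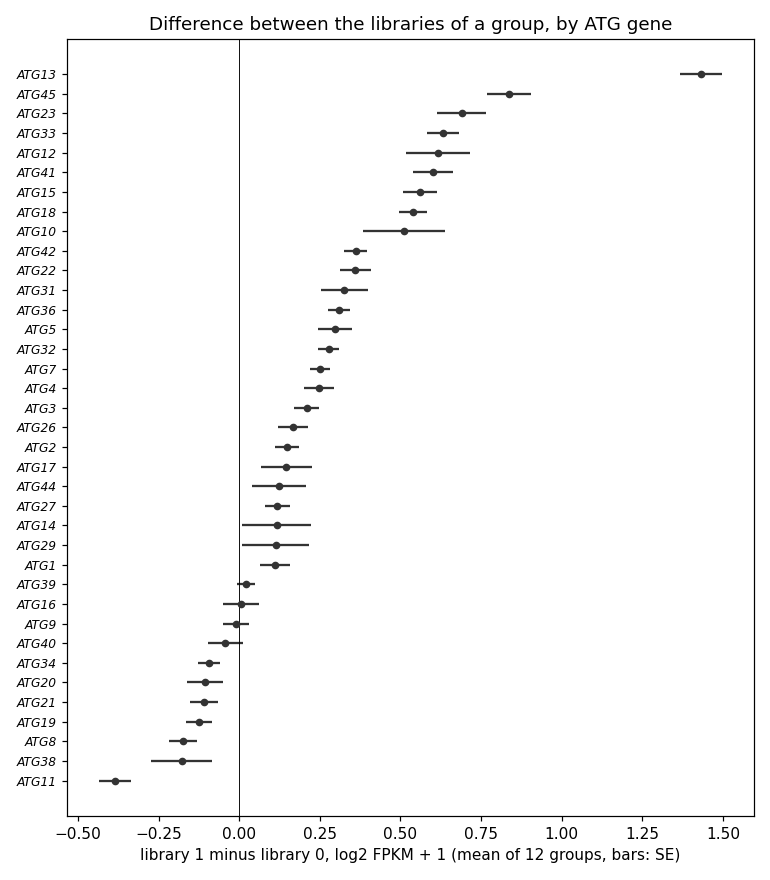
Difference between library 1 and library 0 (log2 FPKM plus 1) for each ATG gene (rows, sorted), with a point for the mean over the 12 groups and bars of 1 SE. ATG13 stands highest, with a mean of 1.43, and ATG11 lies below 0.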

How the data were processed

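RNA of 24 libraries was made into TruSeq stranded mRNA libraries after miRNeasy extraction with DNase, per the labels' protocols. The authors deposited FPKM values, made with TopHat2 and Cuffdiff on sacCer3 per the submitters' processing notes. Neither their versions nor the annotation and scaling are given in the sources used here, and no counts were used, so the depth per sample and the precision it gives are unknown. Columns were put in strains and times by their names, with Mut1, Mut2 and Mut3 for the mutated strains numbered in that order.

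Features were named through the R64 reference, which has the chromosome lengths of sacCer3 (6079 of 7126 matched, 481 at 0 in every library). No ATG gene had a near-identical copy (blastn 2.17.0, 95% identity over 50% of the length). Tested were the 6359 features whose mean reached 1 FPKM, as log2 of FPKM plus a pseudocount of 1, in limma 3.58.1 (R 4.3.3) with 12 group means over all 24 libraries and a trend of variance with mean (12 residual degrees of freedom, prior 1.88). Tests were two-sided, and adjusted p is that of Benjamini and Hochberg over all tested features of a comparison. Spreads after log2 changes are SE of the fit. The fit was tested on simulated data.

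Libraries with the same number deviated together in all 66 pairs of groups (correlations of deviations from the group means 0.23 to 0.601), so the number was taken to pair them, from the column names. The alternatives were the number as a block, a pseudocount of 0.1, no filter, rescaling (size factors 0.867 to 1.09), leaving out each library, and dropping library 0 of Mut2 at 20 min throughout, the last added after seeing the data. The members and lists were chosen with earlier results of these data known. Named are ATG8, ATG1, ATG9, ATG19, ATG32 and ATG11, up to 6 called members with the largest change in each salt comparison, up to 6 with the smallest adjusted p in each comparison of strains, and up to 4 of the other list in the wild type at each time. Other members, and the genes of the factors whose motifs are shown, were described after their values were seen.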

Additional observations from a re-analysis of the deposited data

Results flagged for a closer look

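The rise of ATG9, the gene of the membrane protein whose vesicles seed the autophagosome, differed between Mut1 and the wild type at 10 min. The log2 change was larger in Mut1 by 0.77 ± 0.18 (SE, adjusted p = 0.0327 by limma). The difference was not called on leaving out any of the 8 libraries concerned (adjusted p 0.056 to 0.161).

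The rise of ATG8, the ubiquitin-like protein of the autophagosome, differed between Mut1 and the wild type at 20 min. The log2 change in Mut1 minus that in the wild type was -1.06 ± 0.24 (SE, adjusted p = 0.0259 by limma). Before salt ATG8 was listed at 86.5 and 77.7 FPKM in Mut1 and 30.3 and 25.7 in the wild type, and at 20 min at 353 and 395 and 299.7 and 244. It was not called on leaving out any of 6 of the 8 libraries.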

How the results depend on the processing

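No result changed direction under any alternative run. Of 383 values of named genes, 269 were called, and of all 383 a pseudocount of 0.1 FPKM changed 0 calls, no filter lost 1, rescaling by the median ratio of the genes lost 21 and gained 10, and the library number as a block lost 0 and gained 32. Leaving out library 0 of Mut2 at 20 min from every comparison, an alternative chosen after seeing the data, lost 7, and leaving out each library in turn lost 72 at least once. With the block, which pairs libraries by their number, the count of ATG genes called became 24 (from 10) for WT at 20 against 10 min, 13 (from 4) for Mut1 at 20 against 10 min, 13 (from 3) for Mut2 at 20 against 10 min and 25 (from 10) for Mut3 at 20 against 10 min. It became 9 (from 2) for Mut1 against WT at 0 min, 10 (from 2) for Mut2 against WT at 0 min, 6 (from 1) for Mut3 against WT at 0 min, 23 (from 9) for Mut1 against WT at 10 min, 19 (from 6) for Mut2 against WT at 10 min, 14 (from 1) for Mut3 against WT at 10 min, 14 (from 2) for Mut1 against WT at 20 min, 14 (from 4) for Mut2 against WT at 20 min and 17 (from 2) for Mut3 against WT at 20 min. For differences in response it became 12 (from 1) for the Mut1 response at 10 min, 10 (from 0) for the Mut2 response at 10 min, 6 (from 1) for the Mut1 response at 20 min, 8 (from 0) for the Mut2 response at 20 min and 2 (from 0) for the Mut3 response at 20 min. The block changed no other count of ATG genes by over 1.5 times. Rescaling gave 4 (from 2) for Mut1 against WT at 0 min, 0 (from 1) for Mut3 against WT at 0 min, 10 (from 6) for Mut2 against WT at 10 min, 2 (from 1) for Mut3 against WT at 10 min, 7 (from 2) for Mut1 against WT at 20 min, 7 (from 4) for Mut2 against WT at 20 min, 4 (from 1) for the Mut1 response at 10 min, 3 (from 0) for the Mut2 response at 10 min, 2 (from 1) for the Mut1 response at 20 min and 1 (from 0) for the Mut2 response at 20 min. A pseudocount of 0.1 gave 2 (from 1) for Mut3 against WT at 0 min and 2 (from 1) for the Mut1 response at 10 min. Without library 0 of Mut2 at 20 min the count was 2 (from 1) for Mut3 against WT at 0 min, 2 (from 1) for Mut3 against WT at 10 min and 1 (from 4) for Mut2 against WT at 20 min. Of the other 55 genes, the block called 42 (from 19) for WT at 10 against 0 min, 35 (from 21) for Mut1 at 10 against 0 min, 37 (from 21) for Mut1 at 20 against 0 min, 38 (from 18) for Mut2 at 10 against 0 min, 40 (from 24) for Mut2 at 20 against 0 min, 37 (from 24) for Mut3 at 10 against 0 min, 31 (from 12) for Mut1 against WT at 10 min, 26 (from 7) for Mut2 against WT at 10 min and 10 (from 1) for Mut3 against WT at 10 min. For Mut3 against the wild type at 10 min, rescaling and leaving out that library each called 2 of them, from 1.

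With 1 library left out, the ATG genes called were 19 to 21 for WT at 10 against 0 min, 22 to 25 for WT at 20 against 0 min, 20 to 23 for Mut1 at 10 against 0 min, 22 to 24 for Mut1 at 20 against 0 min, 19 to 23 for Mut2 at 10 against 0 min, 22 to 25 for Mut2 at 20 against 0 min, 19 to 22 for Mut3 at 10 against 0 min and 23 to 29 for Mut3 at 20 against 0 min. They were 5 to 8 for WT at 20 against 10 min, 1 to 2 for Mut1 at 20 against 10 min, 2 to 3 for Mut2 at 20 against 10 min and 4 to 7 for Mut3 at 20 against 10 min. For strains they were 2 in each case for Mut1 against WT at 0 min, 1 to 2 for Mut2 against WT at 0 min, 1 to 2 for Mut3 against WT at 0 min, 6 to 9 for Mut1 against WT at 10 min, 2 to 6 for Mut2 against WT at 10 min, 0 in each case for Mut3 against WT at 10 min, 1 to 3 for Mut1 against WT at 20 min, 1 to 2 for Mut2 against WT at 20 min and 1 to 2 for Mut3 against WT at 20 min. For responses they were 0 in each case for the Mut1 response at 10 min, 0 in each case for the Mut2 response at 10 min, 0 in each case for the Mut3 response at 10 min, 0 to 1 for the Mut1 response at 20 min, 0 to 1 for the Mut2 response at 20 min and 0 in each case for the Mut3 response at 20 min. Of the other 55 genes they were 11 to 18 for WT at 10 against 0 min, 20 to 29 for WT at 20 against 0 min, 13 to 18 for Mut1 at 10 against 0 min, 13 to 22 for Mut1 at 20 against 0 min, 12 to 20 for Mut2 at 10 against 0 min, 19 to 26 for Mut2 at 20 against 0 min, 15 to 19 for Mut3 at 10 against 0 min, 18 to 30 for Mut3 at 20 against 0 min, 4 to 7 for Mut1 against WT at 10 min, 3 to 6 for Mut2 against WT at 10 min and 0 in each case for Mut3 against WT at 10 min. A group with a library left out has a single one, assumed to vary like the other groups. These fits did not use the block, so regular differences between library numbers enter their changes. With 2 libraries a group and an unknown read depth, members that were not called, many of them split by library number, may still differ. The cause of the counts that moved was not tested.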
